A study of Mus musculus with 6 samples.

Results

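The resting T cell transcription factors are a group of transcription regulators that are mostly high in quiescent lymphocytes and lower once the cells are activated. The regulators were listed by name (Satb1, Lef1, Tcf7, Bach2, Foxp1, Foxo1, Klf2, Klf3, Id3 and Myb), and their probe sets were found by the gene symbol of the array annotation. 9 of the 10 listed were measured, each by 1 probe set, out of 19505 gene symbols on the array. Tcf7 had no probe set under its symbol and was not analysed here. Myb is better known in immature and dividing lymphocytes than in resting ones, and Id3 is an inhibitor of E proteins. The name of the group covers Myb and Id3 less well than the others.

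Foxp3+ regulatory T (Treg) cells restrain other immune cells, and they pass from a resting, lymphoid-homing state into an effector state under antigen and cytokine signals. In T cells the resting state is held by factors that drive homing and survival genes (Foxo1, Klf2), by factors of the HMG-box family (Lef1, Tcf7), and by repressors of effector genes (Bach2, Foxp1). UBE2M and UBE2F are E2 enzymes of neddylation, the attachment of NEDD8, a small relative of ubiquitin, to proteins such as the cullins.

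The cells were CD4+YFP+ Treg cells from lymph nodes and spleens of mice aged 8 to 12 weeks, and each of the 6 arrays held RNA pooled from 2 to 3 mice. According to the study, the mice were Foxp3 Cre/wt females, in which Cre and YFP come from the Foxp3 locus and part of the Treg cells escape Cre, so that inflammation does not develop. The 3 control pools carried the Foxp3 Cre allele alone, and the 3 deficient pools carried Foxp3 Cre with floxed Ube2m and floxed Ube2f on both alleles (Ube2m&Ube2f-deficient). The comparison asks which transcripts differ when Treg cells lack both E2 enzymes. Nothing in the labels says that same-numbered pools share a litter or a day.

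The targeted transcript Ube2f read 11.91, 11.82 and 11.90 in the controls and 9.70, 9.72 and 9.82 in the deficient pools on the log2 scale. The difference was -2.13 (SE 0.164, limma adjusted p = 0.000263), and the labels and the values matched. Ube2m had no named probe set and was not analysed here. Across all probe sets 129 of 22206 were higher in deficient cells at an adjusted p under 0.05, which is 0.581%, and 503 were lower, which is 2.27%. Arrays of a group correlated at r of 0.982 to 0.993 across probe sets, and arrays of different groups at 0.975 to 0.985. The titles name muscle, but all 9 skeletal muscle markers, Mb the brightest, averaged at or under 5.39 over the 6 arrays, the 95th percentile of 1091 olfactory receptor genes, which T cells do not use and which serve here as a level for silent genes. The 12 measured T cell identity markers averaged 14.35 to 14.51 in controls and 14.21 to 14.39 in deficient pools, and none was called (the brightest, Cd3e, differed by -0.36, adjusted p = 0.428). No detection call or background value was used, so how far a probe set stood above its own background is unknown.

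4 of the 9 measured factors rose in deficient Treg cells (44.4%, beside 0.581% of all probe sets), 0 fell (beside 2.27%), and 5 did not pass the test. Satb1, Myb, Lef1 and Foxp1 were those that rose. The 4 calls stand beside 2.85% of probe sets called in either direction, and beside 1.17% called higher and 4.21% called lower among probe sets above the silent level. At an unadjusted limma p under 0.05, 6 factors were higher (5.24% of all probe sets) and 1 was lower (7.62%). The methods' t-test, with the study's limits of 0.05 on the unadjusted p and 1.5 on the fold, called 5 factors higher (2.11%) and 0 lower (4.63%). Bach2 differed by an amount between those of Myb and Lef1 but missed the threshold, and Klf2, Klf3, Foxo1 and Id3 did not pass. The median log2 difference of the 9 factors was 0.89, beside 0.02 for all probe sets and -0.03 for the probe sets above the silent level. Every factor lay above that level. In 6 factors all deficient pools lay above all controls (8.22% of all probe sets did so), and in 1, Id3, all lay below (9.97% did so). With 3 pools against 3, an exact permutation test of a single gene cannot give a two-sided p below 0.1. The p-values below therefore come from limma's fit over all probe sets, unless another test is named. That fit sets a difference against the gene's spread between pools, moderated by the variance of all probe sets.

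**Figure D1:**
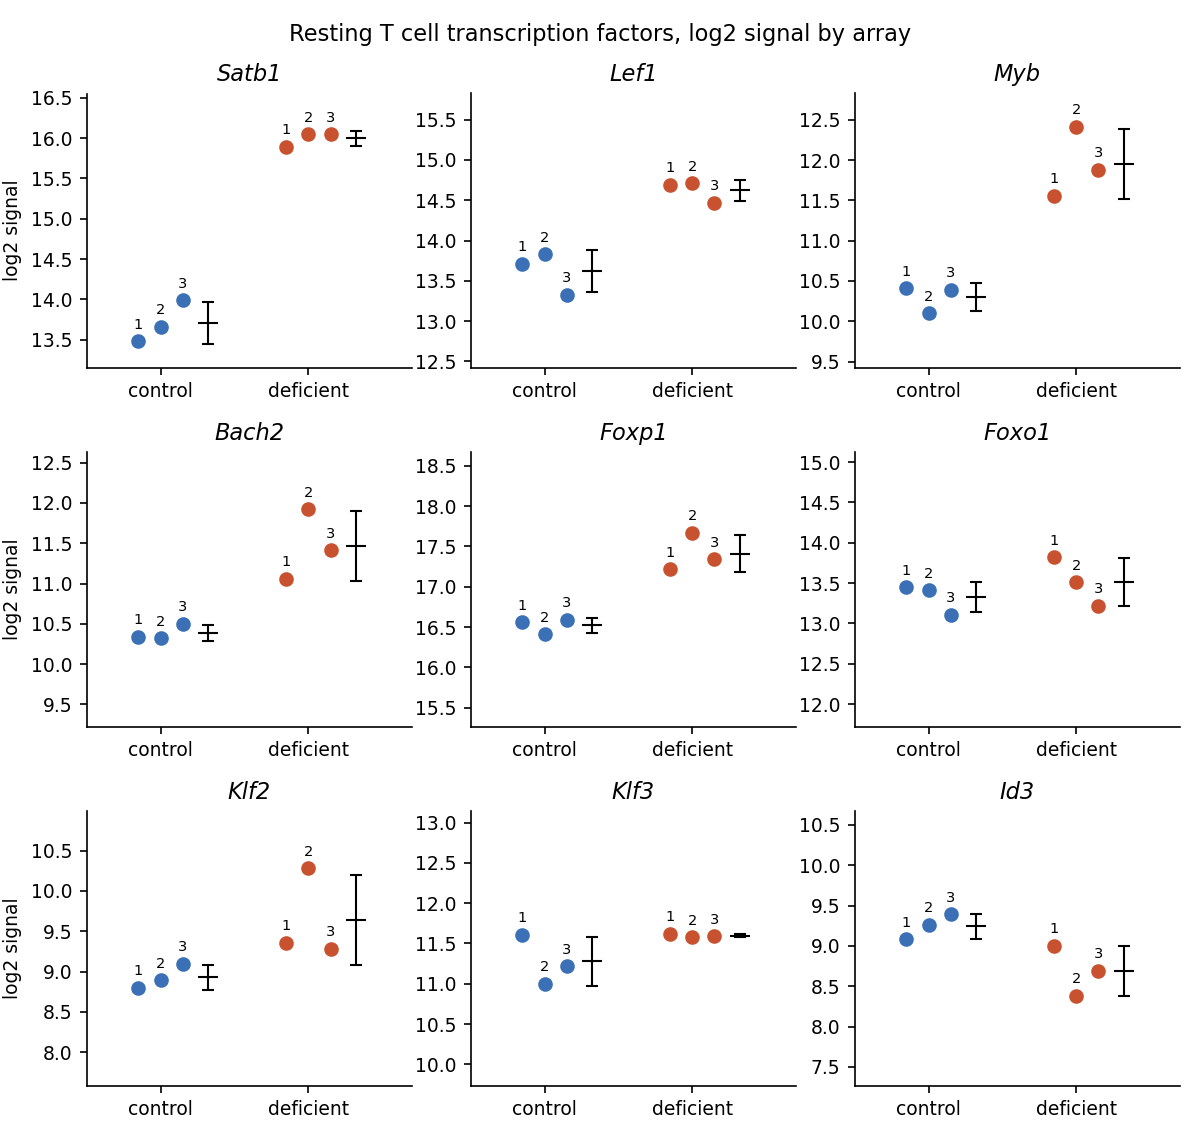
Log2 signal of each measured factor in the 3 control pools (blue) and the 3 deficient pools (red), numbered by replicate; the bar beside each group is its mean with the SD, and each panel has its own vertical range. The groups are separate for Satb1, Lef1, Myb, Bach2, Foxp1, Klf2 and Id3, and they overlap for Foxo1 and Klf3.

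Satb1, a chromatin organiser that is abundant in thymocytes and naive T cells and that FOXP3 is known to repress in Treg cells, differed most. It read 13.48, 13.66 and 13.99 in the control pools and 15.89, 16.05 and 16.05 in the deficient pools. The highest control stood 1.90 below the lowest deficient pool, so the distance between the groups was wider than the spread inside either one. The means were 13.71 ± 0.26 in controls and 16.00 ± 0.09 in deficient cells (SD, n = 3 each), a log2 difference of 2.29 (SE 0.193, 95% interval 1.85 to 2.73) or 4.88-fold (limma adjusted p = 0.000427). Satb1 stayed past the threshold without each array in turn (differences of 2.17 to 2.43, adjusted p of 0.00174 to 0.00469).

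Myb, a factor needed by thymocytes and other blood progenitors, read 10.41, 10.10 and 10.39 in controls and 11.56, 12.41 and 11.88 in deficient pools. All deficient pools were above all controls, with a gap of 1.15, and they spread more widely than the controls did. The means were 10.30 ± 0.17 and 11.95 ± 0.43 (SD, n = 3 each), with a difference of 1.65 (SE 0.242, 95% interval 1.10 to 2.20) or 3.14-fold (limma adjusted p = 0.00814). It too was called without each array in turn (1.42 to 1.84, adjusted p of 0.014 to 0.0472), and the smallest difference was that without deficient pool 2.

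Lef1, an HMG-box factor that acts with β-catenin or with TLE corepressors and shares targets with Tcf7, read 13.71, 13.83 and 13.33 in controls. The deficient pools read 14.69, 14.71 and 14.47. The lowest deficient pool was 0.64 above the highest control. The difference between the means of 13.62 ± 0.26 and 14.62 ± 0.13 (SD, n = 3 each) was 1.0 (SE 0.197, 95% interval 0.55 to 1.45), a 2.00-fold rise (limma adjusted p = 0.0329). That call was lost without any 1 of the 6 arrays, controls included (0.85 to 1.10, adjusted p of 0.0656 to 0.125).

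Foxp1, a forkhead repressor that keeps naive T cells quiescent and cooperates with FOXP3 in Treg cells, read 16.56, 16.41 and 16.59 in controls and 17.22, 17.67 and 17.34 in deficient pools. The groups were 0.63 apart, and no control reached a deficient pool. The means were 16.52 ± 0.10 and 17.41 ± 0.23 (SD, n = 3 each), with a difference of 0.89 (SE 0.189, 95% interval 0.46 to 1.32) or 1.85-fold (limma adjusted p = 0.0446). As for Lef1, the call was lost without any 1 array (0.76 to 0.98, adjusted p of 0.087 to 0.171).

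Bach2, a repressor that holds down effector genes such as Prdm1 and supports the formation of induced Treg cells, read 10.34, 10.32 and 10.50 in controls and 11.06, 11.92 and 11.41 in deficient pools. The controls lay close together, and the deficient pools all lay above them but spread widely. The difference between 10.39 ± 0.10 and 11.46 ± 0.43 (SD, n = 3 each) was 1.08 (SE 0.236, 95% interval 0.54 to 1.61). The limma adjusted p was 0.0508, just outside the threshold of 0.05. Bach2 passed under 6 of 15 other limma settings, among them without deficient pool 1 (1.28, adjusted p = 0.0481). Its adjusted p ran from 0.0243 to 0.201 over all 15. The methods' t-test with Benjamini-Hochberg adjustment, not among the 15, gave an adjusted p of 0.259.

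**Figure D2:**
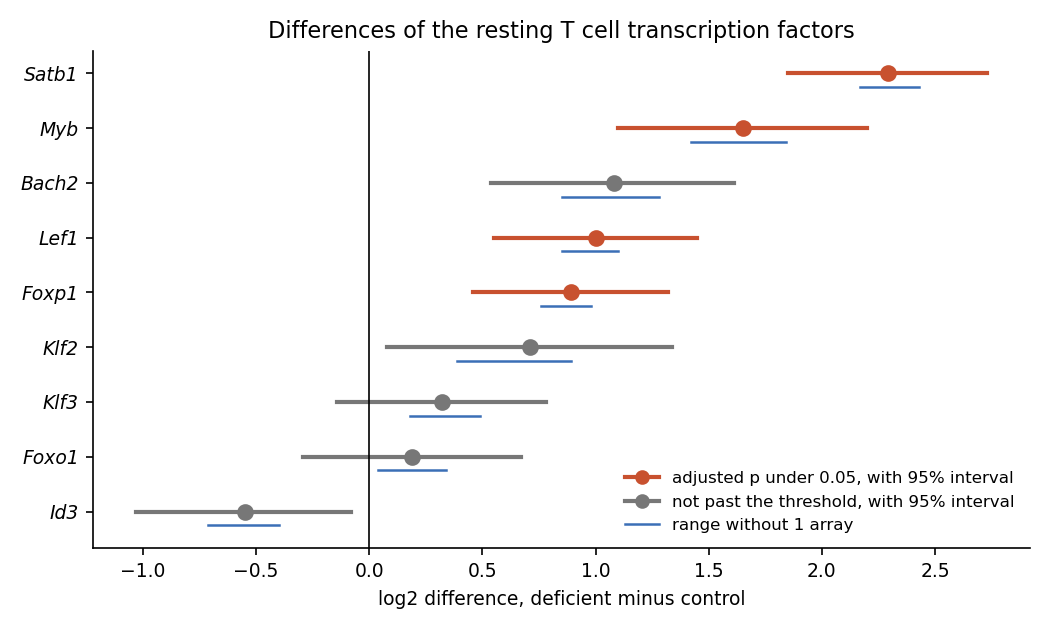
Log2 difference (deficient minus control) of each measured factor, as a point with its 95% interval, red where the limma adjusted p was under 0.05 and grey elsewhere; the blue line under each is the range of the difference when 1 array is left out. Satb1 stands at 2.29 and Id3 at -0.55, and the 7 others lie between 0.19 and 1.65.

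TCF and LEF proteins, the family of Lef1 and Tcf7, bind the letters TCAAAG. The motif occurred in 3 of the 20 windows of the 10 listed factors, beside 16% of all promoter windows. Those 3 windows belong to Lef1, Bach2 and Foxp1. The motif was in no window of Satb1, Myb and Klf2, whose deficient pools also lay above every control. The sequences shown to place the matches are 100-base stretches of the RefSeq promoter windows of these genes (250 bases before to 50 after an annotated start, build GRCm38.p6), written 5′ to 3′ on the strand of the gene with TCAAAG in capitals. All stretches lie before the start.
Lef1: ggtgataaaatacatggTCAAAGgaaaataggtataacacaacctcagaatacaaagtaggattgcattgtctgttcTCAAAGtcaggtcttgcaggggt
Bach2: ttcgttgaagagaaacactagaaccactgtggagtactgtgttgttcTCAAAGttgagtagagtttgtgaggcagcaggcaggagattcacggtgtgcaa
Foxp1: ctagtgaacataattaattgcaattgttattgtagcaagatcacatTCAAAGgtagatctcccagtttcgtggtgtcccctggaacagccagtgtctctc
The Lef1 stretch is chr3:131156097-131156196 on the plus strand, 197 to 98 bases before an internal start 46 kb into the gene, and it holds the motif 2 times. The Bach2 stretch is chr4:32417295-32417394 on the plus strand, 140 to 41 bases before the start. The Foxp1 stretch is chr6:99266666-99266765 on the minus strand, 250 to 151 bases before an internal start 254 kb into the gene. Lef1 had 4 windows, Foxp1 had 3 and Bach2 had 1.

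Searched on both strands, TCAAAG was in 3 of the 20 windows of the 10 listed factors and in 16% of all 32817 windows of the RefSeq table. The forkhead letters GTAAACA were in 2 of the 20 windows, those of Tcf7 and Myb, and in 3.65% of all windows. The MYB letters AACNGNC were in 10 of the 20 and in 32.8% of all. The KLF letters CCNCNCCC, which also match GC boxes bound by Sp factors, were in 17 of the 20, belonging to all the listed factors but Bach2, and in 49.5% of all windows. The letters TGANTCA, shared by BACH and AP-1 proteins, were in 0 of the 20 and in 7.81% of all windows. Some windows of Lef1 overlap each other, as do some of Satb1, so a match there can count more than once. The shares were not matched for GC content. These are matches of letters and no measurement of binding.

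Foxo1 and the Krüppel-like factors sit upstream of the homing receptors. Foxo1, a forkhead activator of Klf2 and Il7r that growth factor signalling keeps out of the nucleus, read 13.45, 13.41 and 13.11 in controls and 13.82, 13.51 and 13.22 in deficient pools. The groups overlapped. The difference was 0.19 (SE 0.212, 95% interval -0.29 to 0.67, limma adjusted p = 0.813), an interval that takes in both a small decrease and a rise of 0.67.

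Klf2, which activates S1pr1 and holds T cells in quiescence, read 8.80, 8.89 and 9.10 in controls and 9.36, 10.28 and 9.28 in deficient pools. Deficient pool 2 stood apart from the other deficient pools, which were close to the controls. The difference of 0.71 (SE 0.276, 95% interval 0.08 to 1.34) had an unadjusted p of 0.0308 and an adjusted p of 0.305 in limma. Without deficient pool 2 it was 0.39 (adjusted p = 0.471). Klf3, a repressor that recruits CtBP, read 11.61, 11.00 and 11.22 in controls and 11.62, 11.58 and 11.59 in deficient pools. Its deficient values lay together, and control pool 1 lay among them. The difference was 0.32 (SE 0.201, 95% interval -0.14 to 0.78, limma adjusted p = 0.609).

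Id3, an inhibitor of E proteins that acts with Id2 in maintaining Treg cells, was the factor with a negative difference. It read 9.08, 9.26 and 9.39 in controls and 9.0, 8.38 and 8.69 in deficient pools. All deficient pools lay below all controls, but the gap was only 0.08. The difference was -0.55 (SE 0.21, 95% interval -1.03 to -0.08), with an unadjusted p of 0.0278 and an adjusted p of 0.29 in limma, and it was -0.40 without deficient pool 2 (adjusted p = 0.489).

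The deficient pools did not shift equally. Measured against the control mean of each factor, the median shift over the 9 factors was 0.67 in deficient pool 1, 1.15 in pool 2 and 0.82 in pool 3, against 0.04, -0.05 and 0.09 in the controls. 5 factors were highest in deficient pool 2 alone (Lef1, Myb, Bach2, Foxp1 and Klf2), and Id3 was lowest there. Satb1 shifted almost equally in the 3 pools, by 2.18, 2.34 and 2.34. Bach2 shifted by 0.67, 1.53 and 1.02, and Myb by 1.26, 2.11 and 1.58. Without deficient pool 2 the median difference of the factors was 0.76.

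Deficient pool 2 also had the highest levels of some markers of other cells. The 5 CD8 T cell markers averaged 5.79, 5.39 and 5.29 in controls and 5.71, 6.55 and 5.56 in deficient pools. Only Gzma and Eomes (5.27) among them were highest in deficient pool 2. Cd8b1, the brightest, was highest in deficient pool 1 (9.62, against 8.81 in pool 2). Cd8a was highest in control pool 1 (5.75, against 5.56 in deficient pool 2), and Gzmk read 3.48 in deficient pool 2 and 4.10 in control pool 1. The mean over the 6 arrays was at or under the silent level for 3 of the 5, while Gzma, a granzyme, read 9.65 in deficient pool 2 and 5.44 to 6.73 in the other pools. The 4 measured NK cell markers averaged 5.63, 4.36 and 4.50 in controls and 4.29, 6.54 and 4.99 in deficient pools, with Klrb1c the brightest. The mean over the 6 arrays was at or under the silent level for 3 of the 4, but in deficient pool 2 all 4 were above it (Ncr1 at 5.59, Klra7 at 6.33, Klre1 at 6.51 and Klrb1c at 7.71). The 12 measured genes of dividing cells averaged 7.07, 6.55 and 6.87 in controls and 7.10, 7.98 and 7.44 in deficient pools. 2 of those 12 rose (16.7%, beside 0.581% of all probe sets), Mcm5 by 1.60 (limma adjusted p = 0.00247) and Bub1 by 1.25 (adjusted p = 0.0352). The differences of 11 of the 12 were positive, with a median of 0.56. At an unadjusted limma p under 0.05, 4 were higher and 0 lower. The brightest, Pcna, was the exception in sign and differed by -0.10 (adjusted p = 0.893). No CD8 or NK marker was called. CD4 T cells had been enriched on beads and sorted as CD4+YFP+ cells. The part of CD8 T cells, NK cells and dividing cells in the factors' shifts was not tested. Without deficient pool 2 Satb1 and Myb kept their calls. Lef1 (limma adjusted p = 0.0866) and Foxp1 (adjusted p = 0.112) lost theirs in the same fit.

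**Figure D3:**
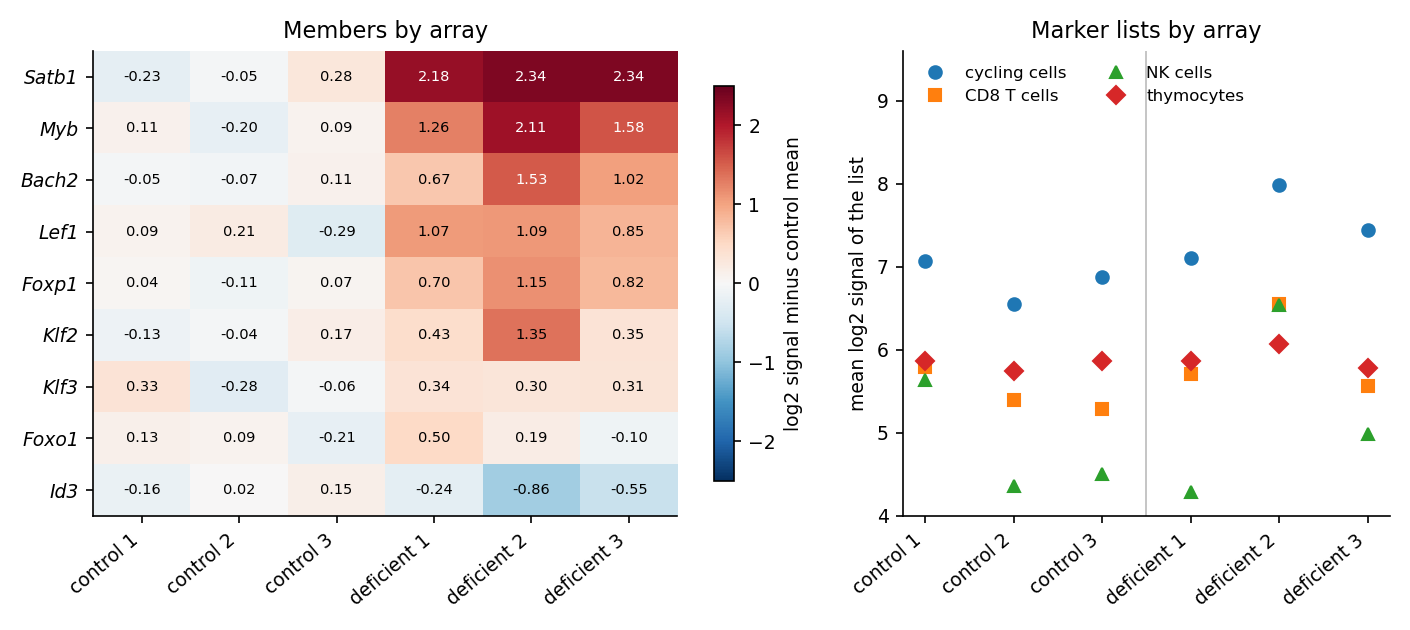
Left, the log2 signal of each measured factor minus its control mean, by array, in red above and blue below the control mean. Right, the mean log2 signal by array of the marker lists for dividing cells, CD8 T cells, NK cells and thymocytes, the last of which also holds Cd8a and Cd8b1. Deficient pool 2 has the highest value of 5 factors alone and of each of these lists.

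Satb1, Lef1, Tcf7 and Myb are also abundant in thymocytes. The 7 measured thymocyte markers averaged 5.74 to 5.87 in controls and 5.78 to 6.07 in deficient pools, and none was called. Averaged over the arrays, 4 of the 7 lay at or under the silent level, among them Rag2 (3.01 to 3.41) and Dntt (2.61 to 2.96). The others were above it in every pool: Cd1d1, the brightest, at 8.87 to 9.42, Cd8b1 at 7.93 to 9.62, and Ptcra, which pairs with the T cell receptor beta chain in thymocytes, at 6.55 to 7.21. Satb1 is likewise a marker of conventional CD4 T cells. Of 9 measured conventional CD4 markers, a list that holds Satb1 itself, 2 rose (Satb1 and Pde3b, the latter by 3.18) and 1 fell (Tnfsf11, a difference of -1.40), and the median difference was -0.08. The list averaged 7.90 to 8.35 in controls and 8.30 to 8.72 in deficient pools. Of 8 measured Treg markers 0 rose and 3 fell: Capg, an actin-capping protein (-2.10, limma adjusted p = 0.00327), Ctla4, an inhibitory receptor (-1.49, adjusted p = 0.00432), and Ikzf2, the Helios factor (-0.95, adjusted p = 0.0446, lost without any 1 array). The brightest of the Treg markers, Il2rb, differed by -0.51 (adjusted p = 0.248). Il2ra was the 1 Treg marker with a positive difference (0.60, limma adjusted p = 0.135). It read 10.61, 10.63 and 10.62 in controls and 11.30, 11.06 and 11.29 in deficient pools. The Treg list averaged 13.57 to 13.87 in controls and 12.88 to 13.03 in deficient pools. Foxp3 was not analysed here. In pooled RNA, a change in the mix of cells and a change in RNA per cell cannot be told apart. The B cell, myeloid and dendritic cell lists averaged at most 4.72 in any pool, with 0 of 7, 0 of 6 and 0 of 6 measured genes called, and the brightest genes of those lists were Cd79b, Lyz2 and H2-Ab1. Of the erythroid list 2 genes were measured, Epor the brighter, and neither was called.

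The relatives of these factors mostly did not pass the test. Of 28 measured family members 0 rose and 1 fell (5 and 4 at an unadjusted p under 0.05), with a median difference of 0.04, and 18 of the 28 lay at or under the silent level. Here and in the lists below, called counts stand beside 0.581% of all probe sets called higher and 2.27% called lower. At an unadjusted limma p under 0.05 these shares were 5.24% and 7.62%. Id2, the relative of Id3 that is used by effector T cells, was the one that fell. It read 12.75, 13.42 and 12.30 in controls and between 9.94 and 11.53 in deficient pools, with no overlap. The difference was -2.33 (SE 0.444, limma adjusted p = 0.0281), and the call was kept in 1 of the 6 fits that leave out an array (adjusted p up to 0.124). Klf7 was the relative with the next lowest p and read 9.62, 9.41 and 9.88 in controls and 10.94, 10.70 and 10.28 in deficient pools (1.0, adjusted p = 0.0576). Tcf7l2, a relative of Lef1 and Tcf7, differed by 1.43 (limma unadjusted p = 0.00604, adjusted p = 0.126). All its deficient pools lay above all controls, and its control mean lay under the silent level. Among other close relatives, Foxo3 differed by -0.21, Foxp4 by -0.24, Bach1 by 0.39 and Klf6 by -0.05, none past the test. Both group means of Foxo3 lay under the silent level.

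Their cofactors did not pass either. Of 17 measured partners 0 rose and 0 fell in limma. At an unadjusted p under 0.05, 3 were higher (5.24% of all probe sets) and 0 lower (7.62%). The differences of 13 of the 17 were positive, with a median of 0.21. In 3 of the 17 the deficient pools lay above all controls, beside 8.22% of all probe sets. Bcl9, which links β-catenin to transcription, had the lowest p (0.86, unadjusted p = 0.0041, limma adjusted p = 0.101). Mafg, a small MAF protein that pairs with BACH2, differed by 0.73 (adjusted p = 0.102), and both of its group means lay under the silent level. The corepressors Tle3, Tle4 and Tle5 differed by 0.15, 0.46 and 0.21.

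Known targets of the factors moved unevenly. Of 13 measured genes that FOXO1 or KLF2 is known to activate, 1 rose and 0 fell, with a median of -0.00. Bcl2l11, which encodes the pro-apoptotic protein BIM, read 7.30, 7.78 and 7.91 in controls and 9.0, 10.05 and 9.03 in deficient pools. It rose by 1.70 (limma adjusted p = 0.0232), with the call kept in 2 of the 6 fits that leave out an array. S1pr1, the receptor for egress from lymph nodes, read 12.49, 12.93 and 13.16 in controls and 13.98, 13.64 and 13.34 in deficient pools, and its difference of 0.79 did not pass (adjusted p = 0.168). Il7r differed by -1.12 (adjusted p = 0.371) and Ccr7 by 0.32 (adjusted p = 0.685).

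Of 6 genes that TCF1 or LEF1 is known to bind or activate, 1 rose and 1 fell, with a median of -0.08. At an unadjusted limma p under 0.05, 1 was higher and 2 were lower. All deficient pools lay above all controls in 1 gene (8.22% of all probe sets) and below them in 3 (9.97%). Axin2 was among those 3 and differed by -1.21 (limma unadjusted p = 0.00794, adjusted p = 0.147). Themis, a T cell receptor signalling protein, read 14.07, 13.43 and 13.84 in controls and 14.70, 15.14 and 14.88 in deficient pools (1.13, limma adjusted p = 0.0327). Bcl6, a transcriptional repressor used by follicular T cells, read 8.76, 8.95 and 8.20 in controls. In deficient pools Bcl6 read 7.12, 7.41 and 6.54 (-1.61, limma adjusted p = 0.0186). These calls were kept in 1 and 2, respectively, of the 6 fits that leave out an array.

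Of 6 measured genes that BACH2 is known to repress, 1 rose and 2 fell, with a median of -0.60. Ccr4, a chemokine receptor of effector Treg cells, read 9.78, 8.97 and 9.70 in controls and 4.12, 4.71 and 4.59 in deficient pools. The difference was -5.01 (limma adjusted p = 5.03e-05), and as the deficient mean lay under the silent level its size is uncertain. Prdm1, which encodes BLIMP1, read 7.76, 7.79 and 8.11 in controls and 4.70, 5.38 and 4.89 in deficient pools (-2.90, adjusted p = 0.000263), again with the deficient mean under the silent level. Ccr9, a gut-homing receptor, went the other way, from 6.36, 6.16 and 6.26 in controls to 7.59, 7.95 and 7.39 in deficient pools (1.38, adjusted p = 0.00748).

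Resting genes that are not transcription factors were mixed. Of 11 measured resting or lymphoid-homing genes 3 rose and 0 fell, with a median of 0.79, and at an unadjusted limma p under 0.05 6 were higher and 2 were lower. The differences of Il7r (-1.12, adjusted p = 0.371), Il6ra (-0.58, adjusted p = 0.35) and Igfbp4 (-0.12, adjusted p = 0.911) were negative. Actn1, an actin crosslinker, rose by 2.01 (limma adjusted p = 0.00128). Ly6c1 read 12.28, 13.37 and 13.72 in controls and 15.21, 14.95 and 15.02 in deficient pools (1.94, adjusted p = 0.0188), and its near-identical neighbour Ly6c2 may share probes with it. Treml2 read 11.75, 11.26 and 12.33 in controls and 13.32, 13.18 and 13.20 in deficient pools (1.45, adjusted p = 0.0232). Without control pool 2, deficient pool 1 or deficient pool 3, 1 of the 11 was still called.

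Of 10 measured effector factors 0 rose and 7 fell, with a median of -2.09. Batf, an AP-1 family factor of effector T cells, read 11.11, 11.41 and 11.18 in controls and 8.53, 8.64 and 8.84 in deficient pools (-2.56, limma adjusted p = 0.000188). Rora, a nuclear receptor of tissue Treg cells, read 10.16, 9.45 and 9.66 in controls. In deficient pools Rora read 6.19, 6.62 and 6.15 (-3.44, limma adjusted p = 0.000181). It had 3 probe sets, of which the brightest was used, and its difference ran from -3.59 to -2.17 over 15 other limma settings. Maf, a driver of Il10, read 9.13, 8.77 and 8.27 in controls and 4.99, 6.02 and 4.26 in deficient pools (-3.63, adjusted p = 0.00213), with a deficient mean under the silent level. Irf4, Bhlhe40, Prdm1 and Id2 were the others that fell. Tbx21 (-0.12, adjusted p = 0.89), Rbpj (-0.68, adjusted p = 0.214) and Nfil3 (-1.68, adjusted p = 0.174) did not pass. Without control pool 2 or 3, or deficient pool 1 or 3, 4 of the 10 were called.

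**Figure D4:**
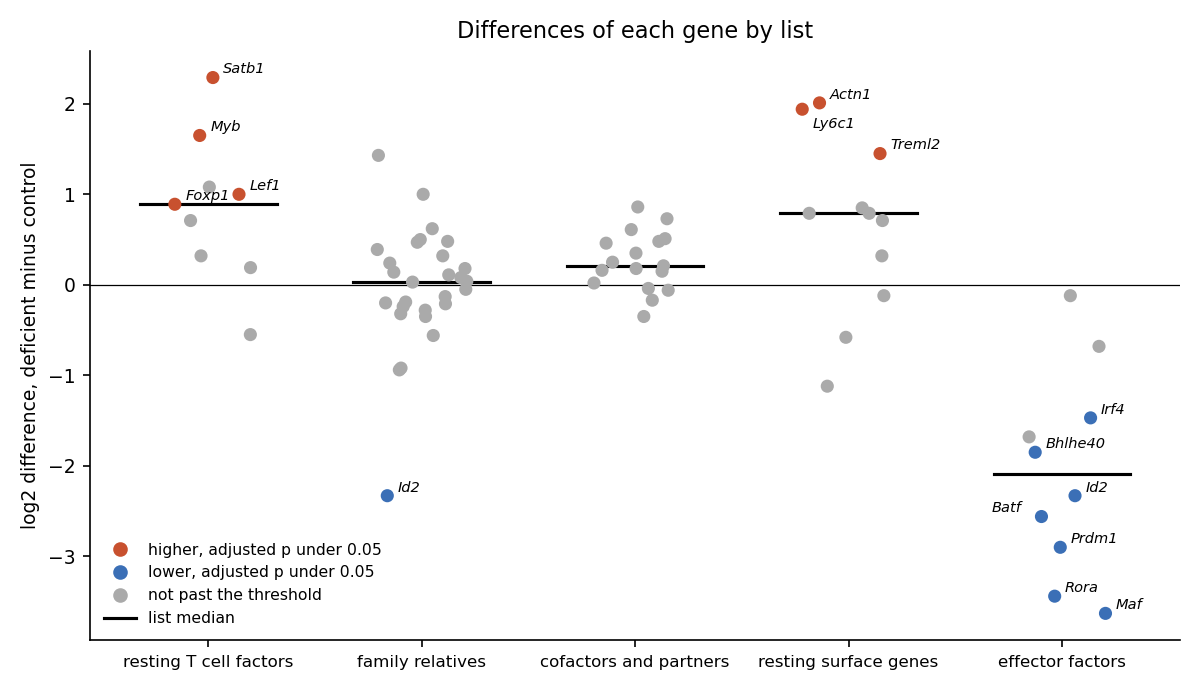
Log2 difference (deficient minus control) of each measured gene of 5 lists, 1 point per gene with random horizontal scatter and a black line at the list median, red where higher and blue where lower at a limma adjusted p under 0.05. The resting T cell factors have a median of 0.89, and the resting genes that are not transcription factors have a median of 0.79. The latter are labelled resting surface genes, though not all encode surface proteins. The effector factors have a median of -2.09. Id2 is in 2 lists.

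Genes that followed a called factor most closely over the 6 arrays were found by the root mean square distance between log2 values, each gene minus its own mean, among 8931 other genes above the silent level. For Satb1 they were Cnn3, a calponin that binds actin (distance 0.15, log2 difference 2.24), Actn1 (0.23, 2.01) and 1700025G04Rik (0.24, 2.26). For Myb they were Ly6c2 (0.20, 1.61), Pvr, a nectin-like adhesion receptor (0.21, 1.52), and Ccr9 (0.22, 1.38). For Lef1 they were Atp10a (0.08, 0.98), Pdk1, an inhibitor of pyruvate dehydrogenase (0.11, 1.04), and Cenpj, a centriole protein (0.12, 0.95). For Foxp1 they were P4ha1, a collagen prolyl hydroxylase (0.06, 0.91), Nasp, a histone chaperone (0.09, 0.94), and Mef2d, a MADS-box factor (0.10, 0.83). With 6 arrays in 2 groups, closeness mainly follows a group difference of similar size, and it is given as a description.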

How the data were processed

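The authors deposited log2 signals, 1 value for each probe set on each array. Affymetrix Expression Console 1.4 is the tool in the submitters' processing notes. How probes were summarised, the base of the logarithm and any filter are not stated in the sources at hand, and log2 was read from the values (2.06 to 19.9, array medians 4.89 to 5.11). The RNA was amplified before labelling. Scan dates were not used here. Of 22206 probe sets 19572 had 1 symbol, 0 had several and 2634 were unnamed here. A gene stood as its brightest probe set.

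Groups came from the genotype label. A two-sided limma 3.58.1 fit (R 4.3.3; lmFit, eBayes) set deficient against control arrays over all unfiltered probe sets, with Benjamini-Hochberg adjustment at 0.05, after the script was tested on simulated data. The number of arrays limits the precision. The t-test that the study's methods name was an alternative.

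The factors and all gene lists were chosen with earlier results of these data known. Named were all factors, Ube2f, the called genes of each list by size (up to 4, or the 2 of lowest p if under 2 were called), the brightest marker of each cell type and the 3 nearest genes of each called factor. Other list genes were named after their values were seen. Promoter windows came from RefSeq (GRCm38.p6).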

Additional observations from a re-analysis of the deposited data

How the results depend on the processing

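The direction of all 9 factors and of their median (0.76 to 0.97) was kept under every alternative run. The count of factors that rose, 4, became 2 (Satb1 and Myb) with median centring of the arrays, with the replicate block, and without control 1 and deficient 2 together, and it was 2 to 3 without 1 array. The methods' t-test with Benjamini-Hochberg adjustment called 0 of the factors, 1 probe set higher and 5 lower, and at the threshold of the methods (unadjusted, with its fold filter) it called 5 factors, beside 468 probe sets higher and 1028 lower. Quantile normalization, array weights, an intensity trend, a filter on dim probe sets and an olfactory receptor covariate gave 4 or 5 factors, with Bach2 in place of Foxp1 after quantile normalization. Over all probe sets, the 129 that were higher became 70 with the replicate block, 232 with the covariate, 50 without control 1 and deficient 2 together, and 46 to 81 without 1 array. The 503 that were lower became 269 to 431 without 1 array.

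Same-numbered pools deviated from their group means with correlations of -0.0561, -0.243 and 0.291, so the numbers were not taken to pair them. With the replicate block Lef1 (adjusted p = 0.0569) and Foxp1 (adjusted p = 0.118) lost their calls, and no pool was paired in the results given. Where the alternatives changed a call, the cause was not tested. The deposited values hold no depth, and signal over background was not known.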
